A study of Mus musculus with 16 samples.

Results

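miR-138 is a brain-enriched microRNA that is made from a pair of genes in the mouse, Mir138-1 and Mir138-2. Its 3 mature rows in a cortical non-coding RNA table, mmu-miR-138-5p, mmu-miR-138-1-3p and mmu-miR-138-2-3p, were read in every library. They were 3 of 1241 mature miRNA rows and of 18488 rows in all. The rows were chosen by their miRBase names, with their values in all 16 libraries already known. The levels and genotype differences given for them are therefore a description, with no p-value for a member. Where thresholds are mentioned for them, it is for context only.

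The table holds small RNA sequencing of 10 mg pieces of frozen prefrontal cortex from 8 PS19+/- mice and 8 wild-type (WT) mice. PS19+/- mice are heterozygous for a transgene of human MAPT, the gene of tau, with the P301S mutation. The mouse prion protein promoter drives it, and WT mice lack it. The mice of both groups were about 9.6 months old. According to the methods each group held as many males as females, but no library is labelled with its sex. Each numbered library was taken as 1 mouse. The values are read counts that the authors divided by a size factor for each library, called normalized counts here.

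A miRNA hairpin is cut out of its transcript by Drosha and opened by Dicer, which leaves a duplex of a 5p and a 3p arm. One arm is usually kept by Argonaute and guides it to messenger RNAs that pair with the seed, bases 2 to 8. In hippocampal neurons miR-138-5p has been found in dendrites near synapses, where it represses Lypla1, which encodes the depalmitoylating enzyme APT1, and limits the size of dendritic spines. Sirt1, which encodes a deacetylase, is another known target.

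The sequences are shown because they set which arm can be traced to which gene. The 5p arm is the same at both loci, at chr9:122682898-122682920 in Mir138-1 and at chr8:94324312-94324334 in Mir138-2, so its reads cannot be assigned to a locus. The 3p arms differ, and each one marks its own locus: mmu-miR-138-1-3p lies at chr9:122682936-122682957 and mmu-miR-138-2-3p at chr8:94324359-94324379. All are on the plus strand of GRCm38.p6 and come from RefSeq, where all 3 names were matched; capitals mark the seed.
mmu-miR-138-5p: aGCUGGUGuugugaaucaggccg
mmu-miR-138-1-3p: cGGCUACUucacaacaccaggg
mmu-miR-138-2-3p: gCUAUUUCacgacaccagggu

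The 3 seeds all differ, and each was found in 1 of the 1679 mature mouse miRNAs of the RefSeq table, its own. The mature arms are 23, 22 and 21 bases long in the order shown. When the 3p arms were aligned they overlapped over 20 bases and matched at 18 of them. The remaining positions were the substitutions C7U and A13G, with the base of mmu-miR-138-1-3p first, positions counted from 1 at its 5′ end, and the base of mmu-miR-138-2-3p last. The 2 bases that extend mmu-miR-138-1-3p at its 5′ end also move the seed, so that C7U falls within both seeds.

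The hairpins are shown to place the arms, which are in capitals.
Mir138-1: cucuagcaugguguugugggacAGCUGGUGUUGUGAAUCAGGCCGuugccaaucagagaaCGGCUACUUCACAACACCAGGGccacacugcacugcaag
Mir138-2: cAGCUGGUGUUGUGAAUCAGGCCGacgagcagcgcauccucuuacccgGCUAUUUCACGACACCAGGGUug

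Mir138-1 is annotated over 99 bases at chr9:122682876-122682974 and Mir138-2 over 71 bases at chr8:94324311-94324381. The arms are 15 bases apart in Mir138-1 and 24 bases apart in Mir138-2. In the GENCODE annotation of the same build, Mir138-2 lies inside the single exon of the lincRNA C78859, on the same strand. Mir138-1 lies inside an exon of Gm47135, a transcribed unprocessed pseudogene, also on the same strand.

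PS19 libraries held 14.1 to 22.6 M reads and WT libraries 13.2 to 23.1 M. miRNAs took 25.5% ± 5.40 of the normalized signal of PS19 libraries and 26.3% ± 6.24 of that of WT libraries (SD, n = 8 each). The code of each library starts with G for all 8 PS19 libraries and for WT replicates 2 and 4, with F for 4 WT libraries and with A for 2. What the letters stand for is not stated, and F and A hold WT libraries alone. Over 521 mature miRNAs with a mean of at least 5, mmu-miR-138-5p ranked 121 by mean level, mmu-miR-138-2-3p 196 and mmu-miR-138-1-3p 275. Of the total miRNA signal they made up 231.1 ppm, 54.2 ppm and 17.3 ppm in that order.

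The 5p arm was the most abundant and spread widely within both genotypes. In PS19 its normalized count was 2845 in replicate 1, 770.8 in replicate 2, 1319 in replicate 3, 803.0 in replicate 4, 726.5 in replicate 5, 408.9 in replicate 6, 691.3 in replicate 7 and 408.8 in replicate 8. In WT it was 2109, 1527, 1564, 1071, 889.4, 647.3, 518.4 and 468.4 in replicates 1 to 8. Replicate 1 was the highest and replicate 8 the lowest in both genotypes, level with replicate 6 in PS19, and all 8 WT values fell inside the PS19 range. The highest library exceeded the lowest 6.96-fold in PS19 and 4.50-fold in WT.

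mmu-miR-138-5p averaged 996.8 ± 798.9 over PS19 libraries and 1099 ± 585.9 over WT libraries (SD, n = 8 each), with medians of 748.6 and 980.2. On the log2(value + 1) scale PS19 minus WT was −0.24 ± 0.38 (SE). The difference was smaller than its standard error and far smaller than the spread between libraries, and 2 of 8 PS19 libraries lay above the WT median. In tissue, fewer cells of a type and less RNA per cell cannot be told apart. Single libraries moved the difference: it was −0.50 without PS19 replicate 1 and −0.08 without WT replicate 1.

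**Figure D1:**
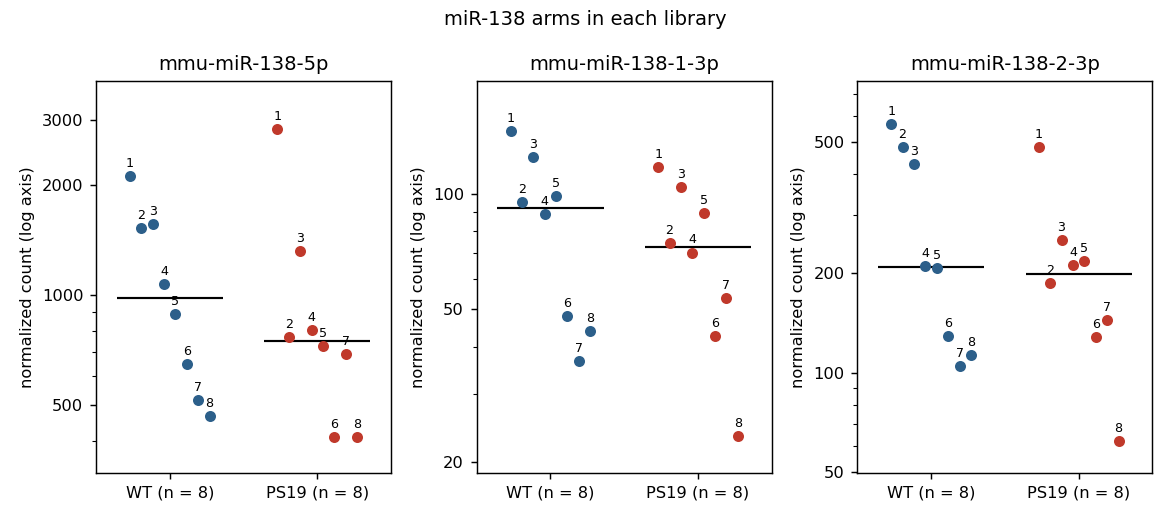
Normalized counts of the 3 miR-138 rows (y axis, log scale) in 8 WT (blue) and 8 PS19 (red) libraries, with replicate numbers beside the points and the group median as a line. The groups overlap in every panel, with mmu-miR-138-5p between 468.4 and 2109 in WT and between 408.8 and 2845 in PS19, and replicate 1 is the highest library of each group.

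Both 3p arms, the partners of 5p in the duplex, were below it in all 16 libraries. mmu-miR-138-1-3p, from the chromosome 9 locus, lay between 23.4 and 117.9 (median 72.5) among PS19 libraries. Among WT libraries it lay between 36.8 and 146.1 (median 91.8). The lowest PS19 value, in replicate 8, rested on 32 reads, and no library had more than 146. PS19 averaged 72.0 ± 31.7 and WT 85.3 ± 39.7 (SD, n = 8 each), and PS19 minus WT was −0.24 ± 0.34 (SE) on the log2(value + 1) scale. The groups overlapped, with 7 of 8 PS19 values inside the WT range, and the difference was −0.03 without PS19 replicate 8 and −0.39 without WT replicate 7.

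mmu-miR-138-2-3p, from the chromosome 8 locus, lay between 62.2 and 483.2 (median 199.7) among PS19 libraries. Among WT libraries it lay between 104.7 and 566.3 (median 208.9). It was read 85 to 509 times per library. PS19 averaged 211.0 ± 125.4 and WT 280.4 ± 184.1 (SD, n = 8 each), and PS19 minus WT was −0.33 ± 0.40 (SE) on the log2(value + 1) scale. Again 7 of 8 PS19 values lay inside the WT range. The difference was −0.53 without PS19 replicate 1 and −0.11 without PS19 replicate 8.

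None of the 3 rows passed limma's test across all features at an adjusted p under 0.05, and none did at an unadjusted p under 0.05. Of 6024 ncRNAs tested, 0% passed at the adjusted threshold and 4.0% (241) at the unadjusted one, so 0 of 3 says nothing particular about the members. At the adjusted threshold DESeq2 on the recovered reads called 15 ncRNAs and edgeR none, with none of the 3 rows among the 15. By the size of their log2 difference the members lay inside the bulk: 41.7% of all tested ncRNAs had a larger one than mmu-miR-138-5p, 42.9% than mmu-miR-138-1-3p and 27.1% than mmu-miR-138-2-3p. Against WT replicates 2 and 4 alone, which share the code letter of all PS19 libraries, the log2 differences were −0.65, −0.49 and −0.80 for 5p, 1-3p and 2-3p. Those WT libraries had mmu-miR-138-5p at 1527 and 1071, and genotype and letter cannot be told apart for the F and A libraries.

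**Figure D2:**
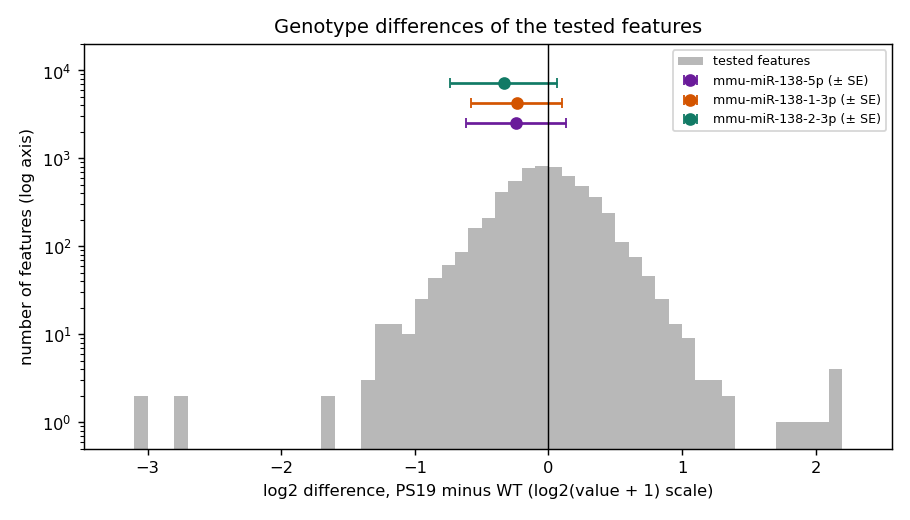
Histogram of the log2 difference, PS19 minus WT, of 6024 tested ncRNAs (x axis, log2(value + 1) scale, y axis, number of features on a log scale), with the 3 miR-138 rows as points with SE bars at arbitrary heights. The members sit at −0.24, −0.24 and −0.33, within the bulk of the distribution, and every SE bar crosses 0.

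The libraries of 1 genotype differed from each other in all 3 rows. The SD within groups on the log2 scale was 0.86 for mmu-miR-138-5p, 0.74 for mmu-miR-138-1-3p and 0.91 for mmu-miR-138-2-3p, of which the part expected from counting reads is about 0.050, 0.18 and 0.11. Among 306 mature miRNAs with a mean of at least 50 the median SD was 0.67. The 5p row was more variable than 84.3% of them, mmu-miR-138-2-3p than 87.6% and mmu-miR-138-1-3p than 67.3%.

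The 3 rows rose and fell together. Over the 16 libraries Pearson's r on the log2 scale was 0.89 between 5p and 1-3p, 0.94 between 5p and 2-3p, and 0.94 between the 3p arms. These points share their libraries and size factors, and most miRNAs moved with them: the median r of 517 other mature rows with mmu-miR-138-5p was 0.60. When the values were instead divided by the total miRNA signal of the library, that median was 0.07, while among the members r was 0.68, 0.83 and 0.80 in the order above. The log2 level of mmu-miR-138-5p correlated with the miRNA share of the library at r = 0.59, with its number of reads at r = 0.08, and with the normalized value of 1 read, the inverse of its size factor, at r = 0.66 (n = 16 each). For the 3p arms the last r was 0.62 (1-3p) and 0.59 (2-3p). The part of library composition and scaling in the level of miR-138 was not tested.

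**Figure D3:**
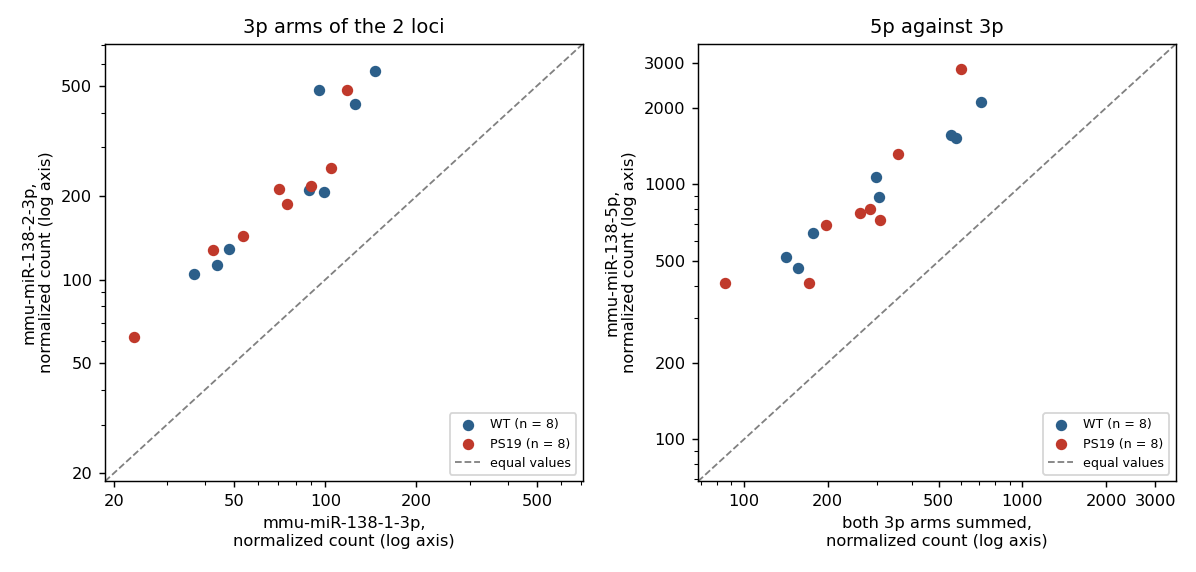
Left, mmu-miR-138-2-3p against mmu-miR-138-1-3p, and right, mmu-miR-138-5p against the sum of both 3p arms, as normalized counts on log axes in 8 WT (blue) and 8 PS19 (red) libraries, with a dashed line at equal values. All 16 points lie above the line in both panels, and the genotypes are mixed along the same band.

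The locus with the larger share of 3p reads was Mir138-2 in every library. mmu-miR-138-2-3p exceeded mmu-miR-138-1-3p in 16 of 16 libraries, by 2.10-fold (WT replicate 5) to 5.09-fold (WT replicate 2). As a share of the reads of both 3p arms, mmu-miR-138-1-3p made up 26.3% ± 3.18 of the PS19 and 25.3% ± 5.18 of the WT libraries' reads (SD, n = 8 each), a difference of 1.03 percentage points, and all 8 PS19 shares lay inside the WT range. Without WT replicate 2 the difference was −0.24 points, and without WT replicate 5 it was 2.02 points. Against WT replicates 2 and 4 alone, which share the PS19 code letter, it was 3.31 points. In single libraries the share ran from 16.4% in WT replicate 2 (95% exact Clopper-Pearson interval 13.6 to 19.6%) to 32.3% in WT replicate 5 (27.4 to 37.5%), intervals that do not overlap. Such intervals cover counting error only, since reads are not independent molecules. Across the 16 libraries the chi-square of the split was 4.04 per degree of freedom, more than counting gives.

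The 4 lowest shares, 16.4 to 22.6%, came from PS19 replicate 1 and WT replicates 1, 2 and 3, and the other 12 libraries lay between 24.9 and 32.3%. These were the 4 libraries with the most mmu-miR-138-5p. Over 16 libraries the share and the log2 level of mmu-miR-138-5p had a Pearson's r of −0.56 and a Spearman's rho of −0.32. Without the 2 libraries farthest from the median level r was −0.31 and rho −0.0066 (n = 14), so the relation was weaker without them. Leaving out extreme levels narrows their range, which can itself lower a correlation. Within genotypes r was −0.52 in PS19 and −0.62 in WT, and rho was −0.12 in PS19 and −0.55 in WT (n = 8 each).

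The 5p arm outnumbered both 3p arms together in 16 of 16 libraries. The ratio of 5p to summed 3p averaged 3.41 ± 0.955 for PS19 and 3.15 ± 0.415 for WT (SD, n = 8 each), with medians of 3.22 and 2.97. The means differed by less than either SD. PS19 libraries lay on both sides of WT, with 3 above and 2 below the WT range of 2.64 to 3.67. The highest ratios were 4.78 in PS19 replicate 8 and 4.73 in PS19 replicate 1, and the lowest was 2.36 in PS19 replicate 5. As shares of all miR-138 arm reads, 5p made up 82.7% in PS19 replicate 8 (95% exact Clopper-Pearson interval 79.6 to 85.5%) and 70.2% in PS19 replicate 5 (67.4 to 73.0%). The chi-square of the 5p to 3p split was 9.83 per degree of freedom over the 16 libraries. Leaving out single libraries moved the log2 difference of the ratio between 0.14 and less than 0, where it reached −0.0032 without PS19 replicate 8 and −0.0012 without PS19 replicate 1.

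**Figure D4:**
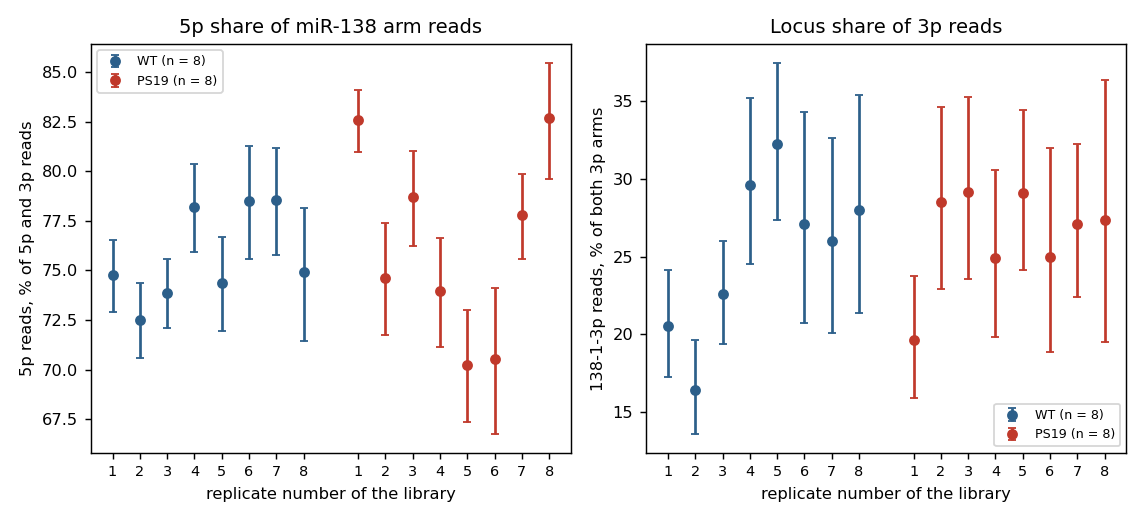
Left, reads of mmu-miR-138-5p as a percent of all 5p and 3p reads, and right, reads of mmu-miR-138-1-3p as a percent of both 3p arms, in each WT (blue) and PS19 (red) library by replicate number (x axis), with 95% exact Clopper-Pearson intervals. The 5p share runs from 70.2 to 82.7%, with both ends in PS19, and the locus share from 16.4 to 32.3%, with both ends in WT.

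The table also lists the hairpins as rows of their own, with fewer reads than the arms on average. mmu-mir-138-1 was read 5 to 116 times per library and mmu-mir-138-2 1 to 19 times. The normalized count of mmu-mir-138-1 was 5.85 to 39.3 for PS19 and 3.54 to 99.2 for WT. That of mmu-mir-138-2 was 2.93 to 17.5 for PS19 and 1.0 to 18.1 for WT. The log2 differences, PS19 minus WT, were −0.36 ± 0.55 and 0.07 ± 0.46 (SE), both smaller than their errors. Single libraries moved the first to −0.04 (without WT replicate 3) or −0.68 (without WT replicate 7), and the second to −0.20 (without WT replicate 6) or 0.26 (without WT replicate 2). DESeq2 placed that of mmu-mir-138-1 at −0.98 ± 0.56 (SE) and edgeR at −0.999, and both placed mmu-mir-138-2 below 0, at −0.13 and −0.15. With the library letter as a term mmu-mir-138-1 and mmu-mir-138-2 were at −1.14 ± 0.85 and −0.64 ± 0.71 (SE), so the sign of the second depends on the fit.

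The order of the loci in the hairpin rows was the opposite of that in the 3p arms. Per 100 bases of hairpin the mean over 16 libraries was 27.5 for mmu-mir-138-1 and 11.8 for mmu-mir-138-2, and the first was higher in 14 of 16 libraries. The mean of each 3p arm was 2.89 times that of its hairpin row at Mir138-1 and 29.4 times at Mir138-2. The arms span bases 23 to 82 of 99 in the Mir138-1 hairpin and 2 to 69 of 71 in that of Mir138-2. The first row therefore covers more sequence outside the arms, which scaling per base does not remove. How reads were divided between mature and hairpin rows is not given in the sources used here, so these ratios compare rows of the table and not precursor levels.

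Among other mature miRNAs, those most like mmu-miR-138-5p over the 16 libraries were mmu-miR-337-5p (Pearson's r = 0.96 on log2 values), mmu-miR-344-3p (0.95), mmu-miR-378c (0.93), mmu-miR-383-5p (0.92) and mmu-miR-344b-3p (0.92). After division by the total miRNA signal, mmu-miR-337-5p was still at 0.90, mmu-miR-344-3p at 0.86, mmu-miR-378c at 0.83, mmu-miR-383-5p at 0.78 and mmu-miR-344b-3p at 0.77. The nearest to mmu-miR-138-2-3p were mmu-miR-344-3p (0.95), mmu-miR-409-3p (0.94) and mmu-miR-337-5p (0.93), which after the same division were at 0.86, 0.80 and 0.74. mmu-miR-138-1-3p was most like mmu-miR-99b-3p (0.92), mmu-miR-99b-5p (0.91) and mmu-miR-28a-5p (0.90), which then fell to 0.73, 0.66 and 0.64. The likest row of 5p, mmu-miR-337-5p, averaged 931.8 for PS19 and 1047 for WT, with a log2 difference of −0.20 ± 0.31 (SE).

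Other miRNAs known from dendrites and synapses were read from a list. Of 20 listed, 19 passed the filter on low values and mmu-miR-188-5p did not. None of the 19 passed limma's test, adjusted or unadjusted, with 9 higher and 10 lower in PS19. At the unadjusted threshold 4.0% of all features and 15 of 521 mature miRNAs passed, so 0 of 19 says nothing particular about the list. Their median log2 difference was −0.04, with a range of −0.55 to 0.26, beside −0.13 over 521 mature miRNAs and −0.02 over all 6024 features. The median of the list was 0.02 when each RNA class was scaled to its own total, so its sign depends on the scaling. With the library letter as a term it was −0.31, with 2 of 19 higher in PS19.

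mmu-miR-134-5p, which represses the kinase Limk1 in dendrites, averaged 4116 ± 1663 for PS19 and 4165 ± 2100 for WT (SD, n = 8 each), a log2 difference of 0.05 ± 0.30 (SE). mmu-miR-132-3p, which is induced by neuronal activity through CREB, averaged 11835 ± 4418 and 11964 ± 5040, a log2 difference of 0.01 ± 0.28 (SE). mmu-miR-124-3p, the neuron-enriched miRNA, averaged 11604 ± 5500 and 11824 ± 3973, with −0.09 ± 0.29 (SE). None of the 3 passed the test. For mmu-miR-134-5p and mmu-miR-132-3p the mean of the counts was lower in PS19 while the mean of the logs was slightly higher, so neither has a direction.

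Marker miRNAs of cortical and neighbouring cells were summed in each library. All 5 neuronal markers were detected, and their summed normalized count was 317081 to 1.07489e+06 in PS19 and 359193 to 1.03531e+06 in WT. Over the 16 libraries it correlated with mmu-miR-138-5p at r = 0.57, and the sums of other lists did so about as closely: vessels at 0.59, liver and muscle at 0.57, choroid plexus at 0.56, oligodendrocytes at 0.51 and immune cells at 0.50. Red blood cell (0.13) and olfactory (−0.12) sums did not follow it. The most abundant row of the neuronal list was mmu-miR-128-3p (mean 486403) and that of the oligodendrocyte list mmu-miR-219a-2-3p (30515). That of the immune list was mmu-miR-146a-5p (1203) and that of the red blood cell list mmu-miR-486a-5p (975.6). Each of these sums therefore followed mostly 1 row. The 3 oligodendrocyte markers summed to 18523 to 52341 in PS19 and 13367 to 46513 in WT, and the 4 vessel markers to 15249 to 61734 and 17887 to 60763. The 5 immune markers summed to 571.2 to 3013 in PS19 and 432.8 to 1539 in WT, with 2 of the 5 above the filter on low values. Of these, mmu-miR-155-5p had a log2 difference of 0.78 ± 0.30 (SE) and passed limma's unadjusted test, as 4.0% of all features did, but not the adjusted one (adjusted p = 0.9998). Red blood cell markers (3) summed to 730.6 to 1518 and 651.6 to 1411, and liver and muscle markers (4) to 2683 to 14916 and 2999 to 10900. The 3 choroid plexus markers summed to 146.1 to 12505 in PS19 and 269.5 to 8758 in WT, and the 4 olfactory markers to 32.5 to 566.1 and 53.0 to 3180. No marker was at 0 in all libraries, and the part of tissue content in the spread of miR-138 was not tested.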

How the data were processed

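Small ncRNA of prefrontal cortex was sequenced in 16 libraries. According to the methods, the authors ran COMPSRA with STAR 2.5.3a and used DESeq2 1.42.1, and the submitters' processing notes name mm10. The deposited table gives normalized signal (counts divided by a size factor), and the authors' own comparison as log2 fold changes, a test score and p-values, which were not used. Dividing each column by its smallest value above 0 gave whole reads within 0.01 for 100% of values, although in WT replicates 4 and 6 that value was near 1, so recovery rests on weaker evidence there. Groups came from the genotype labels. limma 3.58.1 (R 4.3.3) with trend was fitted to log2(value + 1) of 6024 features with a mean of at least 5, with genotype as the term and Benjamini-Hochberg adjustment. The fit was tested on simulated data. DESeq2 1.42.0 and edgeR 4.0.16 on recovered reads, other pseudocounts, filters and scalings, a replicate block, the library letter and leaving out each library were alternatives. Members and lists were chosen with earlier results of these data known. Likeness was ranked by Pearson's r over mature miRNAs with a mean of at least 5, and 5 rows were named for 5p and 3 for each 3p arm. From the dendritic list, rows with an unadjusted p under 0.05 were to be named and otherwise mmu-miR-134-5p, mmu-miR-132-3p and mmu-miR-124-3p. Labels number the mice but do not say that libraries are separate extractions, so p-values measure the spread between these libraries. No pair of libraries of a group looked like repeat deposits of 1 library (chi-square per degree of freedom at least 43.5 over 56 pairs).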

Additional observations from a re-analysis of the deposited data

Results flagged for a closer look

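In PS19 replicate 1, mmu-miR-138-5p was 2845, far above the next PS19 library at 1319, a gap of 0.63 of the group's whole range. In the same library mmu-miR-138-2-3p was 483.2, with the next at 253.2 (0.55 of the range), and mmu-miR-138-1-3p made up 19.6% of the 3p reads, with the next lowest at 24.9% (0.55). PS19 replicate 7 had the most reads of its group, 22.6 M reads, with the next at 18 M reads (0.55). Each gap exceeded Dixon's 95% critical value for 8 samples on the scale given. On the log2(value + 1) scale the gaps of mmu-miR-138-5p and mmu-miR-138-2-3p were 0.40 and 0.32 of the range, below that value, so both depend on the scale. Among 18 sets of group values examined 4 passed it, where chance gives about 0.9, and the first 3 share 1 library. Without that library the log2 difference, PS19 minus WT, was −0.50 for mmu-miR-138-5p and −0.53 for mmu-miR-138-2-3p, and the difference in locus share was 1.99 points.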

How the results depend on the processing

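The 3 members were lower in PS19 on average, with no call, under all 10 alternatives to filter, pseudocount, scaling, tool and term. The filter settings and the replicate block cannot change the estimate of a member, so their sign adds nothing. Their log2 differences ran from −0.65 to −0.14 (5p), −0.49 to −0.18 (1-3p) and −0.80 to −0.28 (2-3p), with the lowest values under the library-code letter as a term. Leaving out each library gave −0.50 to −0.08, −0.39 to −0.03 and −0.53 to −0.11. The number of ncRNAs at an adjusted p under 0.05 was 15 with DESeq2 and 0 under the other settings, libraries left out included. At an unadjusted p it was 680 without the filter on low values (17088 tested), 136 with a mean of at least 20 (2510 tested), 419 with the replicate block and 124 with the letter, against 241, and 171 to 321 with a library left out. The log2 arm ratio ran from −0.0032 to 0.14, the locus share from −0.24 to 2.02 points and the median of the dendritic list from −0.21 to 0.08 when libraries were left out.

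The same replicate numbers occur in both genotypes. Deviations from the group means over 6024 features correlated at 0.045 to 0.46 between same-numbered libraries and over 0.1 for 6 of 8 numbers. In each genotype 2 of 8 libraries, PS19 or WT, correlated best with their own number. The main fit did not take the numbers as pairs, and whether they mark a shared batch was not tested. With the replicate block the differences of the members did not move and their SEs were 0.18, 0.19 and 0.21 in place of 0.38, 0.34 and 0.40. Each difference was then larger than its SE, unlike in the main fit, still with no call. Depth limits the hairpin rows most, with as few as 1 read in a library.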

Other observations

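Same-numbered PS19 and WT libraries resembled each other in miR-138. Across the 8 numbers Pearson's r between the genotypes on the log2 scale was 0.85 for mmu-miR-138-5p, 0.86 for mmu-miR-138-1-3p and 0.79 for mmu-miR-138-2-3p. The median of 521 mature miRNAs was 0.36, and 97.7%, 98.5% and 94.8% of them had a lower r than these rows. After division by the total miRNA signal the r values were 0.29, 0.71 and 0.55, beside a median of 0.05. Then 72.2%, 97.5% and 91.4% of the mature miRNAs had a lower r, so that of mmu-miR-138-5p stood out less. PS19 was higher at 2, 1 and 3 of the 8 numbers. The level also fell with the number. Over both genotypes the median of mmu-miR-138-5p was 1423 for numbers 1 to 4 and 582.9 for numbers 5 to 8. Of the 8 libraries numbered 1 to 4, 6 lay above every library numbered 5 to 8. The r values do not separate this trend from a likeness of single numbers. What the numbers stand for is not given in the labels, and the likeness and the trend were noticed after the values were seen.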
